A study of Mus musculus with 12 samples.

Results

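Toll-like receptors and the interleukin-1 receptor carry microbial and inflammatory signals into blood stem and progenitor cells. The genes described here are 10 of the 37187 in the deposited table, chosen by name: the receptors Tlr2, Tlr4 and Il1r1, the adaptors Myd88, Tirap and Ticam1, and the interleukin-1 receptor associated kinases Irak1, Irak2, Irak3 and Irak4. All 10 were detected in all 12 libraries, on 87 reads (Tlr4 in dKO replicate 3) to 16242 reads (Irak1 in Tet2 KO replicate 3) each, and all 10 entered the tests.

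The messenger RNA came from mouse bone marrow cells sorted as lineage-negative, SCA-1+ and CD117+ (LSK), the gate of haematopoietic stem cells and multipotent progenitors. There were 4 genotypes with 3 libraries each, namely wild type (WT), a knockout of Tet2 (Tet2 KO), a knockout of Traf6 (Traf6 KO) and the double knockout that the labels call Tet2;TRaf6 dKO (dKO). Tet2 encodes an enzyme that oxidises methylated cytosine in DNA, and Traf6 encodes the ubiquitin ligase that these receptors use to reach NF-kB. The title ties TRAF6 to MYC in acute myeloid leukaemia. The alleles, any Cre driver, the age and sex of the mice and any treatment are not given in the sources used here, and nothing in the labels tells whether different libraries stand for different mice. The p-values therefore measure the spread between libraries, which may be technical.

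On binding a ligand, most Toll-like receptors and the interleukin-1 receptor gather MYD88 at their inner face, and TLR2 and TLR4 do so through the bridging adaptor TIRAP. MYD88 assembles IRAK4 and then IRAK1 or IRAK2, and the IRAK kinases engage TRAF6, which builds the ubiquitin chains that start NF-kB and MAP kinase signalling. TICAM1, also called TRIF, serves the MYD88-independent arm of TLR3 and TLR4. IRAK3, also called IRAK-M, lacks kinase activity and is known as a brake on the complex. In bone marrow this route is known for pushing stem and progenitor cells towards myeloid output during infection.

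The promoters of Myd88, Irak2 and Irak3 are shown because these genes passed the test in dKO against WT, Myd88 upward and both IRAK genes downward. Tlr4 also passed, downward, but RefSeq gave no window for it. Each window is the 250 bases before a RefSeq start on GRCm38.p6, 5′ to 3′ on the gene's strand, at chr9:119340019-119340268 (minus strand) for Myd88, chr6:113638217-113638466 (plus) for Irak2 and chr10:120201598-120201847 (minus) for Irak3, which has another start in RefSeq. Capitals mark an interferon element (GAAANNGAAA) in Myd88 and an NF-kB motif (GGGNNNNNCC) in Irak3. The window of the other Irak3 start, chr10:120202131-120202380, held no NF-kB motif.
Myd88: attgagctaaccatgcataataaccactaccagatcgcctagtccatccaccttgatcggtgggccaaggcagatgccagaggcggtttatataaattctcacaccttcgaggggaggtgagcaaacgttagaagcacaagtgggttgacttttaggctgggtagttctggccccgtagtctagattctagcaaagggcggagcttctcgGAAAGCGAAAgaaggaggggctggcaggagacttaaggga
Irak2: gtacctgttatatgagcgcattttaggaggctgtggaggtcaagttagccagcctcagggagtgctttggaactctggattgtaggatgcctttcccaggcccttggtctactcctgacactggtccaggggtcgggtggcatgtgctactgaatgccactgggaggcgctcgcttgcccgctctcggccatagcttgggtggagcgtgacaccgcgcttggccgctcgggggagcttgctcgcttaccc
Irak3: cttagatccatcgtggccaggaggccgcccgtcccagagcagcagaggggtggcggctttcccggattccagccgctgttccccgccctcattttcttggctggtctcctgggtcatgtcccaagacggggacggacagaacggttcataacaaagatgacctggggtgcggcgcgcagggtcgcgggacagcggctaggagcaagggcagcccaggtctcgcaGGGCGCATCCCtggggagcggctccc
Both strands were searched for these motifs and for the E-box CACGTG, which MYC binds. RefSeq gave 13 windows for 9 of the 10 genes. The interferon element stood in Myd88 alone among the 9 and in 2.98% of all 32851 windows. The NF-kB motif was in a window of 7 of the 9 genes and in 45.8% of all windows, and the E-box in Ticam1 alone and in 6.02% of all windows. The counts are per gene, where any window of a gene could match, and the shares are per window, so they are not on a like unit. A match describes the letters of the window and no binding was measured.

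Per kilobase of the longest transcript, Irak1 was the most abundant of the genes in WT LSK cells, at 2240 ± 252 normalised signal per kb (SD, n = 3). Myd88 at 889 ± 88.1 and Irak3 at 868 ± 123 followed, and their ranges overlapped. Irak4 at 423 ± 45.4, Il1r1 at 370 ± 126, Tlr4 at 275 ± 60.4 and Tlr2 at 256 ± 34.8 came next, each overlapping its neighbour in this order. Irak2 at 171 ± 25.7 stood apart from Tlr2 above and Tirap below. Tirap at 122 ± 11.5 and Ticam1 at 104 ± 29.2 were lowest and overlapped. Irak1, Myd88 and Irak3 were thus read at higher levels per kb than all 3 receptors, with no overlap. In dKO the ranges of Irak1 (1625 ± 606) and Myd88 (1380 ± 230 per kb) overlapped, and Tlr4 was ninth of the 10 at 95.7 ± 66.2.

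**Figure D1:**
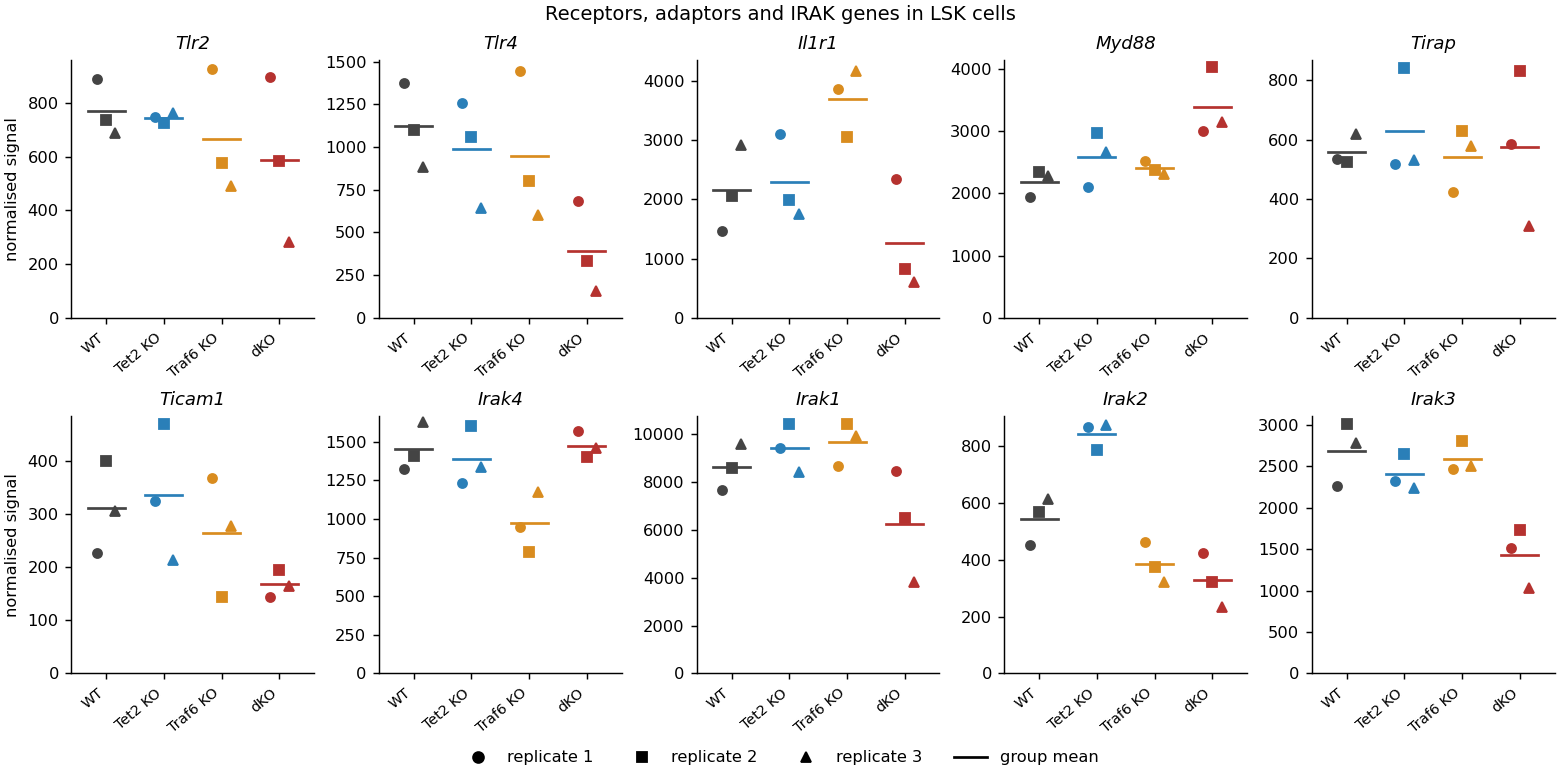
Normalised signal of the 10 genes (vertical axes, linear and starting at 0) in each library of the 4 genotypes (horizontal axes). Symbols are libraries and bars are group means. Tlr4 and Irak3 in dKO lie below every WT library, Myd88 in dKO lies above every WT library, and Irak2 is highest in Tet2 KO.

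Reads behind the values numbered 22169673 to 53921402 per library. The targeted genes did not fall in every library: the library labelled Traf6 KO replicate 1 held Traf6 at 2474 (WT 1935 to 3006) and the library labelled Tet2 KO replicate 1 held Tet2 at 668 (WT 525 to 783). Traf6 in Traf6 KO (adjusted p = 0.497) and Tet2 in Tet2 KO (adjusted p = 0.969) did not pass against WT. The dKO libraries stood apart by transcript length. The deviation of a gene from its mean over the WT libraries ran with transcript length at a Spearman's rho of -0.52, -0.59 and -0.60 in dKO, against -0.40 to 0.29 in the other libraries, and genes over 4000 nt lay at a median of -0.81, -1.42 and -1.41 on the log2 scale. Results for dKO are therefore given as deposited and again with a trend on transcript length and GC content taken off each library. Changes below are log2 changes of value + 1 with their standard errors, tested with limma over 14045 genes and adjusted by Benjamini-Hochberg.

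The first question was whether loss of either gene alone changed these transcripts. None of the 10 passed the limma test in Tet2 KO against WT, where 0.413% of all tested genes did, and none in Traf6 KO against WT, where 0.271% did. edgeR and DESeq2 on the recovered reads also called 0 of the 10 in both. At an unadjusted limma p below 0.05 there was 1 gene in each comparison, Irak2 in Tet2 KO and Irak4 in Traf6 KO, beside 8.44% and 7.80% of all genes, so 1 of 10 was near the background. The median log2 change of the 10 was 0.09 in Tet2 KO, beside 0.02 over all genes, and -0.16 in Traf6 KO, beside -0.03.

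In dKO against WT, 4 of the 10 passed: Myd88 rose, and Tlr4, Irak2 and Irak3 fell. Over all tested genes 48.3% passed, 21.9% higher and 26.5% lower, so the share among the 10 was near the background. The median log2 change of the 10 was -0.65, beside -0.09 over all genes. With the length and GC trend removed, Tlr4 and Irak3 passed, 2 of 10 beside 29.2% of all genes, and the median was -0.19 beside -0.04. Without dKO replicate 1 the count was 7, with Tlr2, Il1r1 and Irak1 also lower, beside 55.6% of all genes. It was 2 without WT replicate 2, without WT replicate 3 or without dKO replicate 2.

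**Figure D2:**
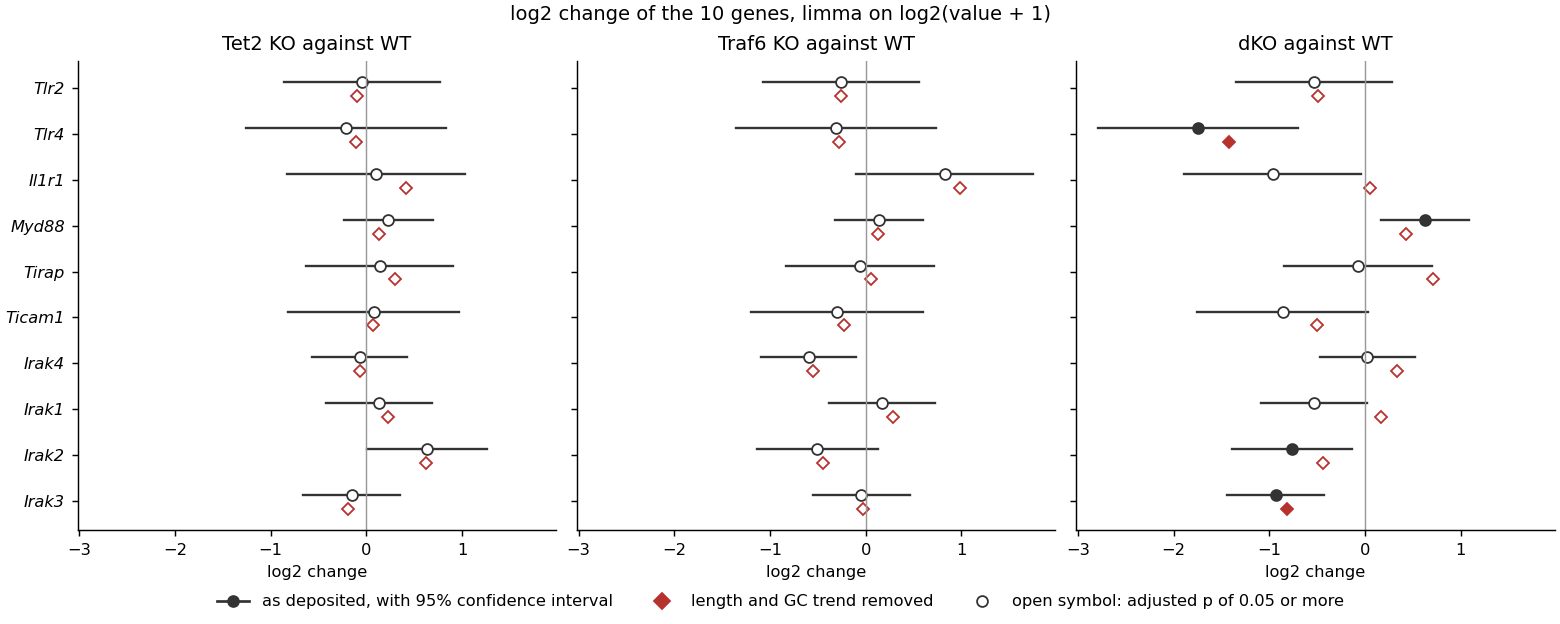
log2 change of the 10 genes (rows) in 3 comparisons (panels), on log2(value + 1). Circles with bars are the values as deposited with 95% confidence intervals, diamonds the values with the length and GC trend removed, and filled symbols have an adjusted p under 0.05. No symbol is filled for Tet2 KO or Traf6 KO, and Tlr4 and Irak3 are filled in both settings for dKO.

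Among the receptors, Tlr4 carried the largest change of the 10 in dKO against WT. TLR4 recognises lipopolysaccharide, the outer-membrane lipid of Gram-negative bacteria, and its gene spans 66827584 to 66930284 of chromosome 4 (GRCm38). Its normalised signal in replicates 1, 2 and 3 was 1376, 1100.2 and 885 in WT, 1256, 1057 and 643 in Tet2 KO, and 1444, 800.4 and 603 in Traf6 KO. The dKO libraries gave 685, 330.0 and 155. Every dKO library lay below every WT library, whereas the single knockouts overlapped both. Tlr4 fell in dKO against WT by 1.75 ± 0.48 on the log2 scale (limma adjusted p = 0.0108), or by 1.42 after removal of the length and GC trend (adjusted p = 0.0189). The call held in all 22 alternatives, at -2.28 to -1.21. It also fell against Tet2 KO, by 1.53 ± 0.48 (adjusted p = 0.0287), and against Traf6 KO, by 1.43 ± 0.48 (adjusted p = 0.0349). Both of these calls depended on single libraries, and without dKO replicate 3 neither passed (adjusted p = 0.0979 against Tet2 KO and 0.13 against Traf6 KO). The call against Tet2 KO also ended without Tet2 KO replicate 1 or 2 or dKO replicate 2, and the call against Traf6 KO without any Traf6 KO library or dKO replicate 2. With the trend removed Tlr4 was at -1.31 against Tet2 KO (adjusted p = 0.0423) and at -1.14 against Traf6 KO (adjusted p = 0.0616), where it did not pass.

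Tlr2, on chromosome 3 from 83836272 to 83841767, recognises bacterial lipoproteins together with TLR1 or TLR6. It ranged from 688 to 889 in WT, 726 to 761 in Tet2 KO and 491 to 927 in Traf6 KO, with dKO at 282 to 894. The groups overlapped throughout, and the dKO libraries held both a value above every WT library and the lowest value of all. The change in dKO against WT was -0.54 ± 0.38 (limma adjusted p = 0.258), and without dKO replicate 1 it was -0.91 (adjusted p = 0.0436).

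Il1r1, on chromosome 1 from 40225080 to 40317257, encodes the signalling receptor for interleukin-1. Its signal was 1465, 2064 and 2921 in WT, 3107, 1997 and 1755 in Tet2 KO, and 3871, 3058 and 4173 in Traf6 KO. In dKO it was 2351, 824 and 613. All 3 Traf6 KO libraries lay above all WT libraries, and all 3 dKO libraries lay below all Traf6 KO libraries. Traf6 KO exceeded WT by 0.83 ± 0.43, which did not pass (limma adjusted p = 0.701). Il1r1 fell in dKO against Traf6 KO by 1.79 ± 0.43 (limma adjusted p = 0.00996), and this was -0.93 with the trend removed (adjusted p = 0.0558). Against WT the dKO value was -0.96 ± 0.43 (adjusted p = 0.0789) as deposited and 0.06 with the trend removed, so the direction in dKO against WT turned on the correction. Without dKO replicate 1 the value against WT was -1.54 (adjusted p = 0.00154). Il1r1 has the longest transcript of the 10, at 5819 nt.

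Of the adaptors, Myd88 was the 1 gene of the 10 that rose in dKO against WT. The gene lies on chromosome 9 from 119335934 to 119341411, minus strand, and has the shortest transcript of the 10, at 2458 nt. Its signal was 1939, 2345 and 2273 in WT, 2104, 2968 and 2672 in Tet2 KO, and 2514, 2375 and 2319 in Traf6 KO. The values in dKO were 2995, 4038 and 3140.1. The dKO libraries were the 3 highest of the 12. The rise over WT was 0.63 ± 0.21 (limma adjusted p = 0.0285). It stayed positive in all 22 alternatives, at 0.37 to 0.71, but the call ended in 9 of them, among them the removal of that trend (0.43, adjusted p = 0.0772), equal library totals (0.37, adjusted p = 0.227), and leaving out any WT library or dKO replicate 2 (0.49 to 0.68, adjusted p = 0.0588 to 0.114). Against Tet2 KO and Traf6 KO the dKO values were higher by 0.40 ± 0.21 (adjusted p = 0.161) and 0.48 ± 0.21 (adjusted p = 0.0877), neither of which passed.

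Tirap, the bridging adaptor of TLR2 and TLR4 (chromosome 9, 35184551 to 35200291), ranged from 526 to 620.4 in WT, 519 to 841 in Tet2 KO and 422 to 630 in Traf6 KO, with dKO at 309 to 830. No group stood apart from another. The dKO change against WT was -0.07 ± 0.36 with a 95% interval of -0.84 to 0.70 (limma adjusted p = 0.884), and 0.72 with the trend removed (adjusted p = 0.137). Ticam1 (chromosome 17, 56269319 to 56276786) was read at 226, 401 and 307 in WT and at 145, 194 and 164 in dKO. Its dKO libraries lay below its WT libraries, but the change of -0.86 ± 0.42 did not pass (limma adjusted p = 0.102). The dKO libraries of Ticam1 held 92 to 154 reads, the lowest read support of any adaptor here.

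IRAK4 is the kinase that MYD88 recruits first. Irak4, on chromosome 15 from 94543643 to 94581815, gave 1324, 1409 and 1626 in WT, 1231, 1599 and 1338 in Tet2 KO, and 950.4, 787 and 1178 in Traf6 KO. In dKO it stood at 1570.0, 1398 and 1458. Traf6 KO was the low group, with all 3 libraries below every library of the other genotypes. The change in Traf6 KO against WT was -0.59 ± 0.23 (unadjusted p = 0.0226, limma adjusted p = 0.547). In dKO against WT it was 0.03 ± 0.23, with an interval of -0.47 to 0.52. Irak4 rose in dKO against Traf6 KO by 0.62 ± 0.23 (limma adjusted p = 0.0486), a call that ended in 19 of 22 alternatives, and by 0.89 with the trend removed (adjusted p = 0.00814).

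IRAK1 is the kinase that hands the signal to TRAF6. Irak1, on chromosome X from 74013914 to 74023918, was read at 7627, 8576 and 9562 in WT, 9395, 10409 and 8408 in Tet2 KO, and 8653, 10410.4 and 9892 in Traf6 KO. The dKO values were 8433, 6460.2 and 3801. The dKO libraries spread the most, and the highest of them lay inside the WT range. The change against WT was -0.53 ± 0.26 (limma adjusted p = 0.104) as deposited and 0.17 with the trend removed (adjusted p = 0.572), and without dKO replicate 1 it was -0.79 (adjusted p = 0.0121). Irak1 fell in dKO against Traf6 KO by 0.70 ± 0.26 (limma adjusted p = 0.0470), a call that ended in 20 of 22 alternatives, and with the trend removed stood at -0.12 (adjusted p = 0.704). The X-linked transcript Xist was at 1164 to 2095 in Traf6 KO and 990.3 to 3826 in Tet2 KO, against at most 17.0 in WT and 1.3 in dKO. The Y-linked Ddx3y was at 3648 to 4065 in WT and 817 to 3889 in dKO, against 51.7 or less in the Tet2 KO libraries. Replicates 2 and 3 of Traf6 KO held 2.32 and 1.78. The library labelled Traf6 KO replicate 1, in which Traf6 stood at the WT level, held both, with Xist at 1574 and Ddx3y at 2815. Both sex-linked transcripts thus differed with genotype, so sex and genotype cannot be told apart in comparisons of a single knockout with WT or dKO, for Irak1 and the other genes alike.

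IRAK2 is the kinase known for keeping late signalling going. Irak2, on chromosome 6 from 113638467 to 113695026, gave 454, 569 and 614 in WT, 867, 786 and 875 in Tet2 KO, and 464, 374 and 320.4 in Traf6 KO. In the dKO libraries it was 425, 323 and 234. The Tet2 KO libraries were the 3 highest of the 12 and overlapped no other group, while Traf6 KO and dKO overlapped each other. The contrast that held best was dKO against Tet2 KO, where Irak2 fell by 1.40 ± 0.29 (limma adjusted p = 0.00835), and by 1.06 with the trend removed (adjusted p = 0.0171). That call held in 20 of 22 alternatives. Tet2 KO exceeded WT by 0.64 ± 0.29 (unadjusted p = 0.0475, limma adjusted p = 0.582), at 0.51 to 0.73 over the alternatives, none of which passed. Irak2 fell in dKO against WT by 0.76 ± 0.29 (limma adjusted p = 0.0440), but that call ended in 13 of 22 alternatives, and with the trend removed the change was -0.44 (adjusted p = 0.188). Leaving out WT replicate 2 or 3, dKO replicate 2 or 3, or any Tet2 KO library ended it (-0.78 to -0.54, adjusted p = 0.0522 to 0.144).

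Irak3, the inhibitory member, lies on chromosome 10 from 120141648 to 120202130. Its signal was 2267, 3010.4 and 2783 in WT, 2321, 2652 and 2240.4 in Tet2 KO, and 2468, 2804 and 2503 in Traf6 KO. The signal in dKO was 1518, 1736 and 1033. The 3 dKO libraries were the lowest of the 12, and the other 3 genotypes overlapped. Irak3 fell in dKO against WT by 0.93 ± 0.23 (limma adjusted p = 0.00654), against Tet2 KO by 0.78 ± 0.23 (adjusted p = 0.0237) and against Traf6 KO by 0.89 ± 0.23 (adjusted p = 0.0148). With the trend removed the falls were 0.82 (adjusted p = 0.00798), 0.62 (adjusted p = 0.0431) and 0.79 (adjusted p = 0.0155). The call against WT held in all 22 alternatives, at -1.19 to -0.72. The call against Tet2 KO ended without Tet2 KO replicate 1 (-0.80, adjusted p = 0.0695), without Tet2 KO replicate 2 (-0.71, adjusted p = 0.0721) and without dKO replicate 3 (-0.56, adjusted p = 0.0509).

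The dKO libraries were also set against each single knockout, and all of these comparisons share the dKO libraries. Against Tet2 KO 3 of the 10 passed, Tlr4, Irak2 and Irak3, all lower, beside 35.3% of all tested genes. The count was again 3 with the trend removed, beside 16.4%. Against Traf6 KO 5 of the 10 passed, Irak4 higher and Tlr4, Il1r1, Irak1 and Irak3 lower, beside 38.0% of all genes. Leaving out any 1 library other than dKO replicate 1 brought that count to 2 or 3. It was 2 with the trend removed, Irak4 and Irak3, beside 20.0%. With both libraries whose targeted gene stood at the WT level left out, the counts were 0 against Tet2 KO and 1 against Traf6 KO, beside 0.407% and 12.6% of all genes, both near the background. Without Tet2 KO replicate 1, Tet2 KO replicate 2 or dKO replicate 3 the count against Tet2 KO was 1, beside 6.26%, 24.7% and 24.1% of all genes, and without dKO replicate 1 it was 5, beside 48.2%.

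Whether the double knockout departed from the sum of the single ones was tested as the interaction, the change from Tet2 KO to dKO less the change from WT to Traf6 KO. This contrast sets WT and dKO against the single knockouts, which differed from both in Xist. Sex and the interaction of the genotypes therefore cannot be told apart here. None of the 10 passed in limma, beside 0.221% of all genes, and edgeR and DESeq2 also called 0. At an unadjusted limma p below 0.05 there were 4, all negative, beside 18.6% of all genes. Il1r1 had the largest value, -1.89 ± 0.61 (unadjusted p = 0.00807, limma adjusted p = 0.219). Irak1 stood at -0.83, Irak2 at -0.90 and Irak3 at -0.74. Without dKO replicate 1 the count was 2, Il1r1 at -2.47 (adjusted p = 0.00469) and Irak1 at -1.09 (adjusted p = 0.0367), and the number of genes called over the whole table was 2472 (17.7%) in place of 31.

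Several cofactors of the receptors rose where Tlr4 fell. Of 13 cofactors tested, 7 rose and none fell in dKO against WT, beside 21.9% of all genes higher and 26.5% lower. Their median log2 change was 0.73, beside -0.09 over all genes. With the trend removed 5 rose and none fell. In that setting 29.2% of all genes passed in either direction, 2165 higher and 1830 lower of 13676. Cd14, the surface protein that passes lipopolysaccharide to TLR4, was at 11.4, 3.43 and 10.6 in WT and at 388, 462 and 570.1 in dKO, a rise of 5.77 ± 0.98 (limma adjusted p = 0.000914). Lbp, the serum protein that delivers lipopolysaccharide to CD14, was at 1074 to 1443 in WT and 2568 to 3589 in dKO and rose by 1.27 ± 0.25 (adjusted p = 0.00179). Ly86, the partner of the Toll-like molecule CD180, rose by 4.17 ± 0.83 (adjusted p = 0.00209) and Lgmn, a protease that trims endosomal receptors, by 1.52 ± 0.46 (adjusted p = 0.0167). The Lgmn call ended when WT replicate 2 was left out (1.05, adjusted p = 0.0877) and when dKO replicate 2 was (1.25, adjusted p = 0.0673), and it stood at 0.87 with the trend removed (adjusted p = 0.179). Ly96, which encodes the lipopolysaccharide-binding subunit MD-2 and was picked after its values were seen, was at 151, 235 and 1074 in dKO and 92.5 to 160.4 in WT. It rose by 1.58 as deposited (adjusted p = 0.0420), stood at -0.18 with the trend removed, and without dKO replicate 3 was 0.74 (adjusted p = 0.165). Its call also ended without WT replicate 2 or 3, any Tet2 KO library, or Traf6 KO replicate 1 or 3 (1.44 to 1.58, adjusted p up to 0.118).

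**Figure D3:**
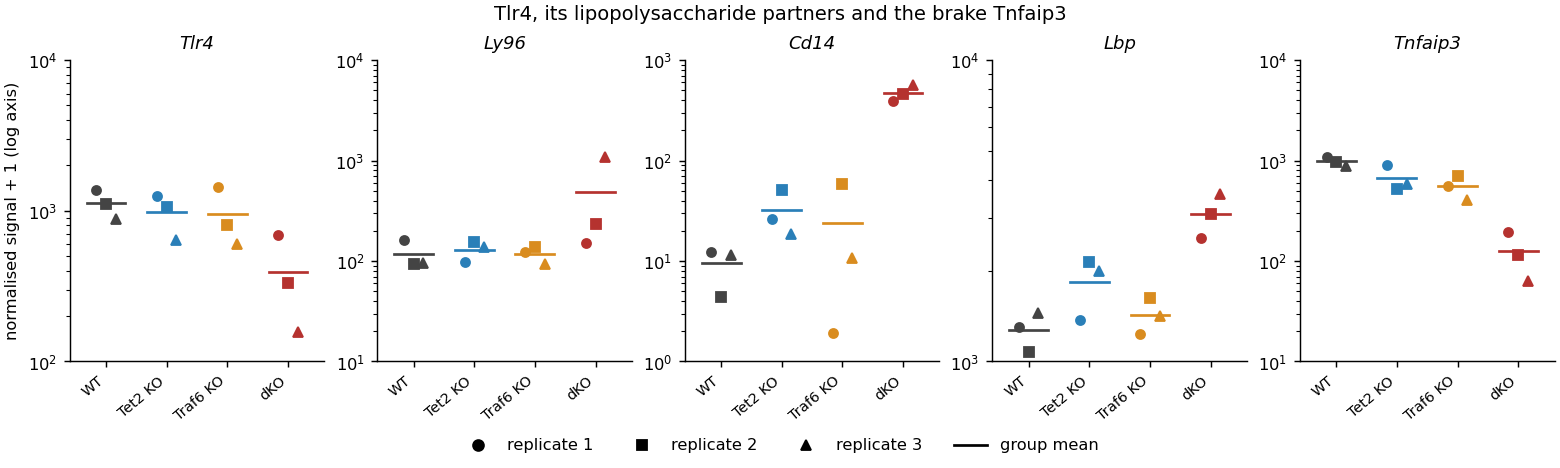
Normalised signal + 1 (vertical axes, logarithmic) of Tlr4, its partners Ly96, Cd14 and Lbp, and the inhibitor Tnfaip3 in each library by genotype. Symbols are libraries and bars are group means. In dKO, Tlr4 and Tnfaip3 lie below and Cd14 and Lbp above every WT library, while a single dKO library carries most of the Ly96 mean.

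Markers of several other cell types were higher in dKO beside Cd14, and those of others overlapped WT or were lower. The summed signal of 13 monocyte and macrophage markers, 1 of which is Cd14, was 1136 to 1699 in WT, 1758 to 2588 in Tet2 KO and 2156 to 3059 in Traf6 KO, with dKO at 6956 to 12151, and none was at 0 in all libraries. The defining macrophage gene Emr1 was at 0 to 26.3 in dKO and 21.2 to 29.1 in WT. The 10 markers of mast cells and basophils summed to 1409 to 2440 in WT and 3795 to 10592 in Traf6 KO, with dKO at 7278 to 11752. Erythroid markers (8 genes) summed to 2855 to 4879 in WT and 8119 to 73513 in Tet2 KO, with dKO at 16824 to 37216, and 14 markers of B, T and NK cells to 6039 to 7556 in WT and 9863 to 85555 in dKO. Mature neutrophil markers overlapped, at 964 to 3467 in WT and 1350.4 to 6416 in dKO. Dendritic cell markers overlapped as well, at 11274 to 15922 in WT and 14101 to 25453 in dKO. Megakaryocyte markers were lower in dKO, at 20724 to 29044.5 in WT and 10989.5 to 16164 in dKO. Stromal and endothelial markers were lower too, at 7103 to 8041 in WT and 3582 to 4793 in dKO. Of the genes of the sorting gate, Kit, which encodes CD117, was at 44484 to 47837 in WT and 4099 to 11935 in dKO, and Ly6a, which encodes SCA-1, was at 1990 to 2339 and 1968 to 13218. Among further progenitor genes Cd34 overlapped, at 37782 to 52709 and 40877 to 59383, and Cd48 was at 3179 to 5266 and 11723 to 26688. The part of these shifts in the values of the 10 genes was not tested, and in bulk RNA fewer cells of a type and less RNA per cell cannot be told apart.

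Of 14 further receptors of the family tested, 1 rose and 5 fell in dKO against WT, a share near the 48.3% of all genes that passed, and 2 fell with the trend removed, beside 29.2%. Tlr6, which pairs with TLR2, fell by 1.81 ± 0.41 (limma adjusted p = 0.00379). Il1rl2, the interleukin-36 receptor, fell by 2.35 ± 0.56 (adjusted p = 0.00508), and Il18rap, a chain of the interleukin-18 receptor, by 1.38 ± 0.27 (adjusted p = 0.00194). Il1rap, the co-receptor of IL1R1, picked after its values were seen, fell by 1.10 (adjusted p = 0.0241), a call that ended without any WT library or dKO replicate 2 or 3 (-1.12 to -0.95, adjusted p = 0.0516 to 0.0800). Il1r2, a decoy receptor that binds interleukin-1 without signalling, was the receptor that rose, by 2.01 ± 0.44 (adjusted p = 0.00323) from a WT mean of 60.1 ± 13.3 (SD, n = 3). Of these, Il18rap (-0.56, adjusted p = 0.0735), Il1rap (-0.53, adjusted p = 0.194) and Il1r2 (0.91, adjusted p = 0.0774) did not pass with the trend removed, and Tlr6 (-1.49, adjusted p = 0.00791) and Il1rl2 (-1.87, adjusted p = 0.0125) did. Of 12 ligand genes 6 were expressed enough to be tested, and 1 rose and none fell, beside 48.3% of all genes. It was the alarmin Hmgb1, which rose by 0.73 ± 0.21 (limma adjusted p = 0.0121), though not without WT replicate 2 (0.69, adjusted p = 0.0519). With the trend removed 1 ligand gene rose, Hmgb1 by 0.47 (adjusted p = 0.0462), and 1 fell, beside 29.2%.

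Among 20 adaptor partners and brakes, 3 rose and 7 fell in dKO against WT, 10 in all, which is near the 48.3% of all genes that passed. Ecsit, Sharpin and Fam105b (also called Otulin), named after their values were seen, were those that rose, by 0.85, 0.69 and 1.40 (adjusted p = 0.0123, 0.0309 and 0.00422). Without the trend these stood at 0.04, 0.08 and 0.41 and did not pass, while 2 others rose and 4 fell, beside 29.2% of all genes. Tnfaip3, the ubiquitin-editing enzyme A20 that undoes TRAF6 signalling, was at 1093, 964 and 876 in WT and at 194, 115 and 62.6 in dKO, a fall of 3.11 ± 0.40 (limma adjusted p = 0.000311), and it fell by 1.87 with the trend removed (adjusted p = 0.0029). Tollip, which holds IRAK1 back, fell by 1.62 ± 0.36 (adjusted p = 0.0036), Cyld, a deubiquitinase, by 2.07 ± 0.36 (adjusted p = 0.00107) and Tnip1, a partner of A20, by 1.03 ± 0.23 (adjusted p = 0.00386). Without the trend Tollip stood at -1.07 (adjusted p = 0.0126), Cyld at -0.62 (adjusted p = 0.0748) and Tnip1 at -0.61 (adjusted p = 0.0305), so that Cyld did not pass.

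Below the IRAK kinases, 13 of 26 downstream kinases and ligases fell and none rose in dKO against WT. In all this share was near the 48.3% of all genes that passed, while 26.5% of all genes passed lower. The median log2 change of the list was -0.66, beside -0.09 over all genes, or -0.19 beside -0.04 with the trend removed. After removal of the trend 8 fell and 3 rose, beside 29.2%. Traf3, the ligase of the TICAM1 arm, fell by 2.73 ± 0.43 (limma adjusted p = 0.000656), Tab3, a ubiquitin-binding subunit of the TAK1 kinase, by 2.43 ± 0.48 (adjusted p = 0.00203) and Map2k7, a kinase of JNK, by 1.48 ± 0.29 (adjusted p = 0.00209). With the trend removed Traf3 stood at -1.04, Tab3 at -1.38 and Map2k7 at -0.79 (adjusted p = 0.011, 0.0121 and 0.0132). Ikbke fell by 1.38 ± 0.28 (adjusted p = 0.0023) as deposited, and stood at -0.08 without the trend. Traf6 itself was at 799 to 1313 in dKO and fell by 1.36 ± 0.46 (adjusted p = 0.0278), or stood at -0.18 with the trend removed (adjusted p = 0.792). That call ended without WT replicate 2 or 3 or dKO replicate 1 or 3 (-1.33 to -1.19, adjusted p = 0.0567 to 0.0866).

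Of 16 transcription factors and NF-kB inhibitors 4 rose and 2 fell in dKO against WT, beside 48.3% of all genes, and 4 rose and none fell with the trend removed, beside 29.2%. Fos rose by 3.92 ± 0.71 (limma adjusted p = 0.0013) and Nfkbib by 1.46 ± 0.45 (adjusted p = 0.0179), while Nfkb2 fell by 1.59 ± 0.28 (adjusted p = 0.00107) and Nfkbie by 0.77 ± 0.21 (adjusted p = 0.0106). After removal of the trend Fos stood at 3.39 and Nfkbib at 1.13 and both passed, whereas Nfkb2 at -0.56 (adjusted p = 0.0795) and Nfkbie at -0.46 (adjusted p = 0.0571) did not. Nfkbib did not pass without WT replicate 2 (1.41, adjusted p = 0.0556). Of 18 cytokine genes that the pathway can induce 10 were tested, 3 rose and 1 fell, beside 48.3% of all genes, and 2 rose with the trend removed, beside 29.2%. The chemokine genes Ccl3 and Ccl4 rose by 3.05 ± 0.57 (adjusted p = 0.00148) and 3.55 ± 0.67 (adjusted p = 0.00157), or by 1.32 (adjusted p = 0.0244) and 1.70 (adjusted p = 0.00594) with the trend removed. Il12a rose by 1.11 ± 0.38 (adjusted p = 0.0274), which was -0.09 with the trend removed. The Il12a call also ended without WT replicate 2 or 3 or dKO replicate 2 or 3 (0.66 to 1.16, adjusted p = 0.0508 to 0.0996). Csf1 fell by 1.23 ± 0.33 (adjusted p = 0.00948), and with the trend removed stood at -0.28 (adjusted p = 0.559). In Tet2 KO and Traf6 KO against WT no gene of these 7 pathway lists passed the limma test on the values as deposited, and with the trend removed 2 ligand genes, the alarmins S100a8 and S100a9, fell in Tet2 KO.

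**Figure D4:**
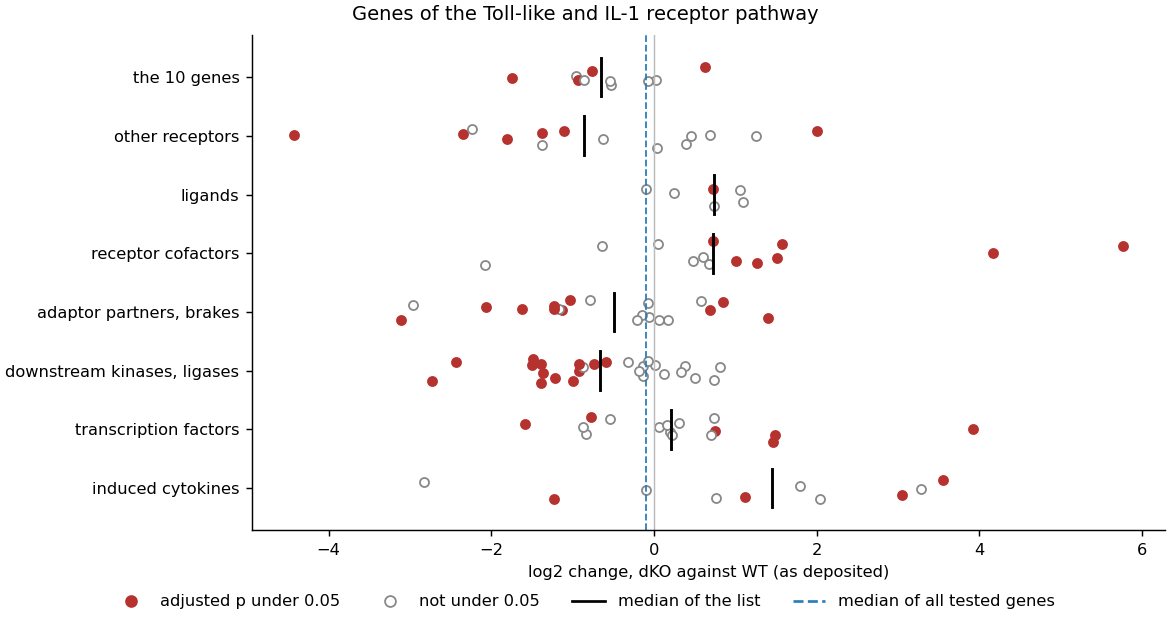
log2 change in dKO against WT as deposited (horizontal axis) for each tested gene of the 10 and of 7 pathway lists (rows). Filled points passed at an adjusted p under 0.05, black bars are list medians, and the dashed line is the median of all tested genes. The cofactors that passed all lie to the right and the downstream kinases and ligases that passed all lie to the left.

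Across the 12 libraries, each of the 10 genes had genes that varied much like it, by Pearson's r of log2(value + 1). Tlr4 was most like Trmt2b, Slc6a15 and Nedd9 (r = 0.96 to 0.97). Il1r1 was most like Mical2, Rbpj and Ikbkb (r = 0.96 to 0.97), of which Ikbkb encodes a kinase of the NF-kB pathway. Irak3 was most like Slain1, Abca5 and Def8 and Irak1 most like Mark3, Myo1g and Adam15 (r = 0.96 to 0.97). Myd88 was most like C030046I01Rik (r = 0.95) and Cdk9 (r = 0.95), and Irak2 most like Slc2a10 (r = 0.91). These values describe libraries that share genotype, depth and the length trend, and with that trend removed Tlr4 was most like Trim21 (r = 0.97) and Myd88 most like Ankrd52 (r = 0.96).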

How the data were processed

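RNA of sorted LSK cells from 12 samples was amplified with a SMART-Seq low-input kit, per the labels' protocols; such a kit does not mark strand, so overlapping antisense reads cannot be told apart. The authors deposited a normalised signal in which each library's reads were scaled by 1 size factor. Tools listed in the submitters' processing notes are STAR, featureCounts, DESeq2 and bcl2fastq, with the builds mm10 and GRCm38; versions and settings are not given in the sources used here. Division by the signal that 1 read stands for (0.518 to 1.79) gave whole reads for 100% of values (tolerance 1e-06).

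The test was limma 3.58.1 (R 4.3.3, trend and robust) on log2(value + 1) over 12 libraries in 4 groups, for the 14045 genes at 10 or more in at least 3 libraries, with Benjamini-Hochberg adjustment and a threshold of 0.05. This scale understates changes of low genes. The script was tested on simulated data. Alternatives were a pseudocount of 5, no filter, each library left out, only the groups compared, equal library totals, a block for the replicate number, edgeR 4.0.16 and DESeq2 1.42.0 on recovered reads, and a loess trend (span 0.5) on length and GC content taken off, with and without the block (13676 genes, 97.4%, had a length). Leaving out both libraries with the targeted gene at the WT level was added after seeing the data. Positions and lengths came from GENCODE M21 (GRCm38), which matched 30477 genes, and promoters from RefSeq.

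The 10 genes and the pathway and marker lists were chosen with earlier results of these data known. Named besides the 10 were Tet2, Traf6, the genes most alike by r and up to 4 genes per pathway list. The latter had the smallest p among those that passed. Ly96, Il1rap, Ecsit, Sharpin, Fam105b, Xist and Ddx3y were chosen after their values were seen. So were Emr1, the progenitor genes and the named erythroid, B, T and NK cell markers.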

Additional observations from a re-analysis of the deposited data

How the results depend on the processing

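Of 27 results on the 10 genes, over 590 alternatives, 480 kept direction and side of the threshold, 89 lost the call, 6 gained one and 15 turned direction; for 28 results on other pathway genes, over 616, 556 kept both, 56 lost the call and 4 turned. The cause was not tested. Counts of the 10 genes called changed by setting as follows. In dKO against WT the count of 4 became 2 with no filter, with only the groups compared and with the trend removed, with or without the block. In dKO against Tet2 KO the count of 3 became 6 with equal totals, 0 with both libraries whose targeted gene stood at the WT level left out and 0 with only the groups compared. In dKO against Traf6 KO the count of 5 became 2 with no filter, 3 with equal totals, 1 without both libraries, 0 with only the groups compared, 2 in edgeR, 2 with the trend removed and 3 with that trend removed plus the block. Leaving out 1 library at a time gave 2 to 7, 1 to 5 and 2 to 5 in these comparisons and 0 to 2 for the interaction.

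Genes called over the whole table, in Tet2 KO, Traf6 KO and dKO against WT, dKO against Tet2 KO, dKO against Traf6 KO and the interaction, were 58, 38, 6790, 4963, 5342 and 31. Leaving out 1 library gave 13 to 141, 14 to 79, 4700 to 7750, 871 to 6721, 2074 to 6938 and 14 to 2472. DESeq2 gave 300, 167 and 259 in the first, second and last. Without both libraries named above the counts were 115, 25, 56, 1734 and 15 in all but dKO against WT. With only the groups compared they were 367 in Tet2 KO against WT, 61 against Tet2 KO and 1186 against Traf6 KO. With the trend removed they were 64 in Traf6 KO against WT and 3995, 2249 and 2737 for dKO against WT, Tet2 KO and Traf6 KO, or 3892, 2154 and 2596 with the block too.

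Equal library totals moved the median of all genes in dKO against WT from -0.09 to -0.34, and the split against Tet2 KO from 2174 higher and 2789 lower to 1458 and 3430. In dKO against WT, Irak4 stood at -0.23 with equal totals, -0.03 in edgeR, -0.04 without WT replicate 1 and -0.02 without dKO replicate 1 (-0.04 to 0.11 without 1 library). Tirap stood at 0.00 in edgeR and without WT replicate 3, 0.06 in DESeq2, 0.32 without dKO replicate 3 (-0.39 to 0.32 without 1 library) and 0.72 with the trend removed. With the trend removed, with or without the block, Il1r1 was at 0.06, Irak1 at 0.17, Ly96 at -0.18 and Il12a at -0.09. Tlr4 in Tet2 KO against WT was 0.06 without Tet2 KO replicate 3 and -0.42 to 0.06 over all libraries left out.

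Replicate numbers do not pair the libraries: 3 of 18 same-number pairs deviated together at r above 0.1, and libraries were most like their own number in 9 of 36 cases. With the replicate block, 3 of the 10 genes were called in dKO against WT, 3 against Tet2 KO and 3 against Traf6 KO. The 87 reads of Tlr4 and 92 of Ticam1 in dKO replicate 3 limit the precision of those values, and 3 libraries a group limit all of it.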

Other observations

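Ratios within a library do not depend on its scaling, and a few were picked after the values were seen, so they carry no test. They are ratios of signal per kb, and with 3 libraries against 3 an exact permutation test could not go below 0.10. Irak3 over Irak4, the inhibitory IRAK over the first kinase, was 1.90 to 2.37 in WT, 1.84 to 2.09 in Tet2 KO, 2.36 to 3.96 in Traf6 KO, with dKO at 0.786 to 1.38, so that the dKO libraries lay below and overlapped no other group. Irak2 over Irak4 was 0.369 to 0.434 in WT, 0.529 to 0.757 in Tet2 KO, 0.293 to 0.525 in Traf6 KO, with dKO at 0.173 to 0.291. The Tet2 KO libraries were highest and the dKO libraries lowest by this ratio, with Traf6 KO spanning the WT range. Both pairs have transcripts of like length, 3097 and 3196 nt against 3437 nt. Cd14 over Tlr4, the lipopolysaccharide carrier over its receptor, was at most 0.0297 in WT, 0.118 in Tet2 KO and 0.180 in Traf6 KO, against 1.41, 3.48 and 9.11 in the dKO libraries. Myd88 over Tlr4 was 2.34 to 4.26 in WT and 7.25 to 33.5 in dKO, with Tet2 KO at 2.78 to 6.89 and Traf6 KO at 2.89 to 6.38. Cd14 (1641 nt) and Myd88 (2458 nt) have shorter transcripts than Tlr4 (4077 nt). These ratios over Tlr4 therefore carry the trend of the dKO libraries with transcript length, and its part in them was not tested.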
